A study of Homo sapiens with 4 samples.

Results

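The BCL2 family decides whether the outer membrane of the mitochondria stays intact. Anti-apoptotic members such as MCL1, BCL2L1 (BCL-XL) and BCL2L2 (BCL-W) hold their relatives in check, the effectors BAX and BAK1 open pores in the membrane that release cytochrome c, and BH3-only members such as BCL2L11 (BIM), PMAIP1 (NOXA) and BID carry death signals to both. All 3 classes share a short helix, the BH3 region, through which one member sits in a groove of another.

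Of 10 listed genes of this family, 8 were found by their symbol among the 13957 genes of the table, and these 8 are described here. They are 3 anti-apoptotic genes (MCL1, BCL2L1 and BCL2L2), 3 of 5 BH3-only genes (BCL2L11, PMAIP1 and BID) and 2 effector genes (BAX and BAK1). The BH3-only genes BBC3 (PUMA) and BIK had no row, by symbol or by gene ID. No level is given for them, and the rule that decided which genes were listed is not given in the sources used here.

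RNA came from MDA-MB-231 Fluc cells, a triple-negative human breast cancer line to which a firefly luciferase gene was added. A set of 2 samples received 50 μM cordycepin (3′ deoxyadenosine) for 2 h and a set of 2 received the DMSO vehicle, and all carried the luciferase gene. The question of the study was how cordycepin changes mRNA levels. The columns that answer it hold the authors' own test of that contrast and were not used here, so that no effect of cordycepin on any gene is reported. The values below are the authors' mean log2 CPM (counts scaled by library size) of each gene, 1 value over treated and control libraries together. A gene that responded to the drug therefore has a mean that may lie between its levels in both groups. No value per library was given, so there is no SD, no depth and no test, and neighbouring levels cannot be told apart from or held equal to each other by a replicate error.

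The cells were checked against markers of the line. AXL, LGALS1, CAV1, VIM, CD44 and MSN, 6 of 7 marker genes of mesenchymal-like breast cancer cells, were all in the table, and the lowest of them, MSN, had 7.10 log2 CPM per kb against a median of 2.43 over all genes. SPARC, the other gene of that list, had no row. Of 9 genes that mark luminal breast, epithelial, blood or endothelial cells, 4 had no row, which were ESR1, PGR, PTPRC and PECAM1. The other 5 reached at most 3.13 log2 CPM per kb, the value of ERBB2, which was above 62.5% of genes. By reads not scaled by length, ERBB2 had 6.49 log2 CPM, above 81.8% of genes. The exon length used for it is 10321 bases, against 4557 for its canonical transcript. Levels of the markers under other lengths were not tested. Of these 5 genes, 2 were above the median of all genes per kb, so not all of them were low.

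The BH3 region is shown first, as the piece of sequence that all 3 classes have in common. Its core was searched for as a leucine, 3 residues of any kind, a glycine, alanine or serine, and an aspartate, in the protein translated from the canonical transcript of each gene. The windows below are 30 bases of coding sequence read 5′ to 3′ on the strand of the gene from GENCODE release 44, which is on the GRCh38 build. Capitals mark the codon of the first residue of the core and the codons of its last 2 residues.
MCL1: gagaccTTAcgacgggttGGGGATggcgtg
BCL2L1: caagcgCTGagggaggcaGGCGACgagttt
BCL2L2: caagccATGcgggcagctGGAGATgagttc
BCL2L11: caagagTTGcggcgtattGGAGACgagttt
PMAIP1: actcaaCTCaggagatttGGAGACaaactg
BID: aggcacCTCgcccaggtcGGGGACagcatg
BAX: gagtgtCTCaagcgcatcGGGGACgaactg
BAK1: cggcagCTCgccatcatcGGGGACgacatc

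The core with leucine first was found in 7 of the 8 proteins. BCL2L2 was the exception, as its window opens with a methionine codon, and it was found once isoleucine, valine, methionine or phenylalanine were also allowed as the first residue. With glycine as the only residue allowed before aspartate, the same count of 7 was obtained. These letters are common: of 11570 proteins of genes in the table, 38.3% held the core with leucine first, 66.7% held the wider form and 15.5% held the form with glycine only. A match by itself is therefore a description and not a sign of a BH3 region.

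The place of the core differed between the proteins. In PMAIP1, the shortest at 54 residues, it spans residues 29 to 34, and in BCL2L11, with 198 residues, it lies at residues 152 to 157, towards the end of the protein. In the effectors BAX (192 residues) and BAK1 (211 residues) it starts at residues 63 and 78. MCL1, with 350 residues, has a long stretch ahead of its core, which starts at residue 213. In BCL2L1 (233 residues) the core starts at residue 90, and in BCL2L2 (193 residues) the wider form was found at residues 46 and 79, of which the former, with glycine before aspartate, is the window printed above. BID (195 residues) held 2 matches with leucine first, at residues 25 and 90. The latter, with glycine before aspartate, is the BID window printed above.

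**Figure D1:**
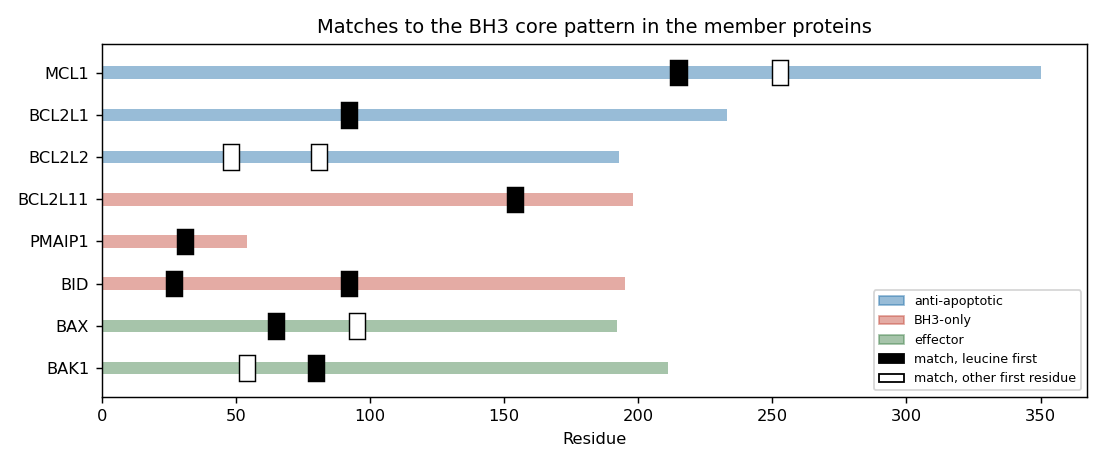
Position of matches to the BH3 core pattern in the 8 member proteins, each drawn to scale in residues from its first residue and coloured by class. Filled boxes are matches with leucine first and open boxes are matches with another first residue; filled boxes are seen in 7 proteins, BID has 2 of them and BCL2L2 has open boxes only.

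Each window lies within 1 coding exon. On the minus strand are those of MCL1 at chr1:150578871-150578900 in exon 1, BCL2L1 at chr20:31721928-31721957 in exon 2, BID at chr22:17739421-17739450 in exon 4 and BAK1 at chr6:33575393-33575422 in exon 4. On the plus strand are those of BCL2L2 at chr14:23307897-23307926 in exon 3, BCL2L11 at chr2:111150097-111150126 in exon 3, PMAIP1 at chr18:59902667-59902696 in exon 2 and BAX at chr19:48955781-48955810 in exon 3. Exons are numbered along the canonical transcript.

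The whole proteins were then aligned, with free end gaps, so that for some pairs only part of the length was aligned. Whether the BH3 core lay in the aligned part of each pair was not tested. The median identity over the 28 pairs of member proteins was 30.3% of the positions aligned without gaps, and 25.3% of the shorter protein. No identity was computed for unrelated proteins, so these medians have no level to be set against. BCL2L1 and BCL2L2 were the closest over a long stretch, with 96 of 181 aligned positions identical (53.0%). MCL1, of the same class, shared 32.9% of 210 positions with BCL2L1 and 28.5% of 172 with BCL2L2. The effectors BAX and BAK1 shared 25.4% of 189 positions, a lower value than BAX had with MCL1 (33.1% of 175) or BAK1 with BCL2L2 (35.3% of 173). Some pairs of different classes thus had a higher identity than some pairs of the same class. The value of 52.2% for PMAIP1 with BID rests on only 23 aligned positions, and it was 22.2% of the shorter protein. Other pairs also fell on that measure. BCL2L11 shared 39.0% of 105 positions with BCL2L1 but 20.7% of the shorter protein. With BCL2L2 it shared 33.9% of 59 positions but 10.4% of the shorter protein.

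The mRNA levels of the anti-apoptotic genes are described next. BCL2L1, whose long isoform blocks BAX and BAK1, had a mean of 7.87 log2 CPM, a measure of reads that is not scaled by length and on which it ranked above 94.3% of all genes in the table. MCL1, a short-lived protein that must be made continuously, had 7.65 log2 CPM, above 93.1% of genes on that scale. BCL2L2 had 5.62 log2 CPM, above 67.6% of genes, where the median gene had 4.58. The first 2 genes were thus near the top of the table by reads, and BCL2L2 was closer to its middle.

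Longer mRNAs give more reads, so ratios between genes are given per kb, using the exon length that the table lists for each gene. This length is 3314 bases for BCL2L1, 4371 for MCL1 and 4110 for BCL2L2. On that scale BCL2L1 had 6.14 log2 CPM per kb, MCL1 had 5.52 and BCL2L2 had 3.58, above 94.9%, 91.6% and 70.4% of genes. BCL2L1 was thus 1.53 times as abundant per kb as MCL1 and 5.89 times as abundant as BCL2L2. Of the summed CPM per kb of these 3 genes, BCL2L1 held 54.9%, MCL1 35.8% and BCL2L2 9.32%.

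Of the effectors, BAX had 6.89 log2 CPM, above 86.5% of genes, and BAK1 had 5.10, above 58.5%. Both have short exon lengths, 2587 bases for BAX and 2212 for BAK1. Per kb, BAX had 5.52 log2 CPM and BAK1 had 3.95, above 91.6% and 76.0% of genes. BAX was thus 2.96 times as abundant as BAK1 and held 74.8% of the summed CPM per kb of both. The level of BAX per kb differed from that of MCL1 by 0.0013 on the log2 scale, which is a ratio of 1.00. This near match depends on the length used. With all exons in GENCODE release 44, MCL1 had 5.01 and BAX 5.52 log2 CPM per kb. The values were 5.67 and 7.22 with the canonical transcript, and 7.58 and 7.69 with the coding length.

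BH3-only genes were the lowest class by their median. PMAIP1, a p53 target whose product binds MCL1, had 5.15 log2 CPM, above 59.5% of genes. BID, which caspase-8 cleaves to link death receptors to mitochondria, had 5.05 log2 CPM, above 57.7% of genes. BCL2L11, whose product binds all the anti-apoptotic proteins, had 3.82 log2 CPM and was below the median of the table, above only 37.7% of genes. This place depends on which low genes are counted, and among genes above the lowest 25% of the table it was 16.9%.

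Exon length separated them further, as PMAIP1 has 2186 bases, BID 4446 and BCL2L11 6656. Per kb, PMAIP1 had 4.02 log2 CPM, BID had 2.89 and BCL2L11 had 1.09, above 77.1%, 58.5% and 27.2% of genes. PMAIP1 was 7.65 times as abundant per kb as BCL2L11 and held 63.0% of the summed CPM per kb of these 3 genes. BCL2L11 was the only one of the 8 genes below the median of all genes on both scales.

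**Figure D2:**
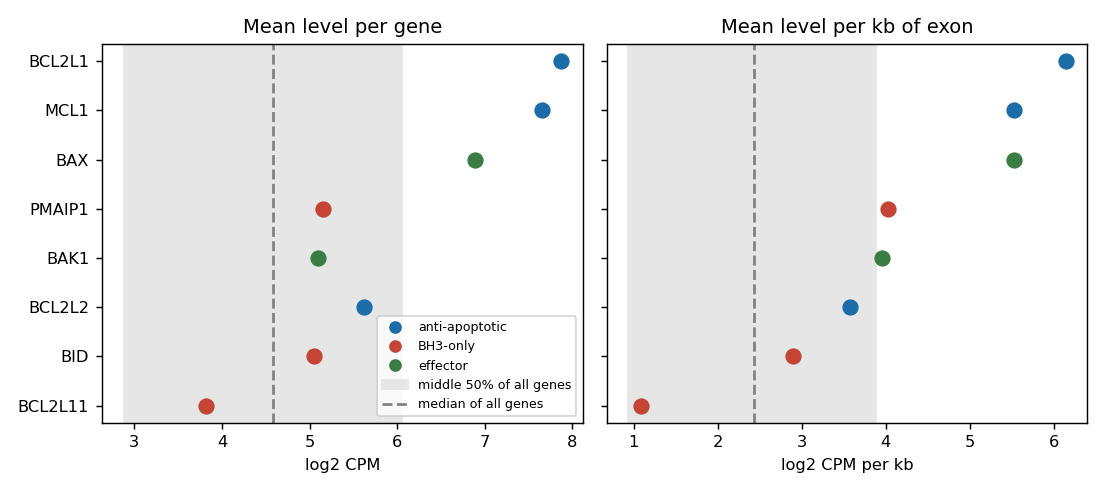
Mean level of the 8 genes over all libraries, as log2 CPM (left) and as log2 CPM per kb of exon (right), 1 point per gene, coloured by class and in the order of the right panel. The grey band holds the middle 50% of all genes in the table and the dashed line is their median; BCL2L1, MCL1 and BAX lie to the right of the band on both scales, and BCL2L11 is the lowest.

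In order of log2 CPM per kb the genes were BCL2L1, MCL1, BAX, PMAIP1, BAK1, BCL2L2, BID and BCL2L11. The range from first to last was 5.05 on the log2 scale, a ratio of 33.1. The widest step was between BID and BCL2L11, at 1.81 on the log2 scale, a ratio of 3.50, followed by that between BAX and PMAIP1, a ratio of 2.82. With the listed exon length, MCL1 and BAX were 0.0013 apart, and PMAIP1 and BAK1 0.071. These distances change with the length used. As no spread between libraries was available, which neighbours differ beyond it was not tested.

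Between classes, the median of the anti-apoptotic genes was 5.52 log2 CPM per kb, that of the effectors 4.74 and that of the BH3-only genes 2.89. The ranges overlapped, from 3.58 to 6.14 for anti-apoptotic genes, from 3.95 to 5.52 for effectors and from 1.09 to 4.02 for BH3-only genes. The anti-apoptotic median was 2.63 above the BH3-only median and 0.78 above the effector median on the log2 scale. Of the CPM per kb of all 8 genes, 59.5% belonged to anti-apoptotic genes, 28.5% to effectors and 12.0% to BH3-only genes. These shares depend on the length used: with the coding length, 25.6% belonged to BH3-only genes and 22.2% to effectors, and with the canonical transcript the effectors held the most, 46.2% against 43.5% for anti-apoptotic genes. The order of anti-apoptotic genes and effectors turned around, to -0.22, when the other genes of the family in the table were added. The 2 BH3-only genes without a row are not in these sums. Nor are the other genes of the family that had a row. Of these, the BH3-only gene BAD had 30.2 CPM per kb, against a sum of 25.8 for the BH3-only genes counted here. The effector BOK had 27.3 CPM per kb and the anti-apoptotic BCL2 had 0.99.

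With the canonical transcript in place of all exons, BAX and BID moved most. The canonical transcript of BAX has 795 bases, against 2587 bases when the exons of all its transcripts are joined, and with the former BAX had 7.22 log2 CPM per kb and was the highest of the 8 genes. BID moved from 2.89 to 3.92, as its canonical transcript has 2177 bases. With the coding length, PMAIP1 moved from 4.02 to 7.78, from rank 4 to rank 2, and BCL2L11 from 1.09 to 4.57, both by more than BAX or BID. BCL2L11 was the lowest gene under each of the 4 lengths tried. BCL2L1 was the highest under 3 of them and took second place, after BAX, with the canonical transcript. Levels per gene do not separate isoforms, which matters in this family, because alternative splicing of BCL2L1, MCL1 and BCL2L11 gives proteins that differ in their effect on cell death. GENCODE lists 15 transcripts for BCL2L1, 14 for BCL2L11 and 12 for BAX.

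**Figure D3:**
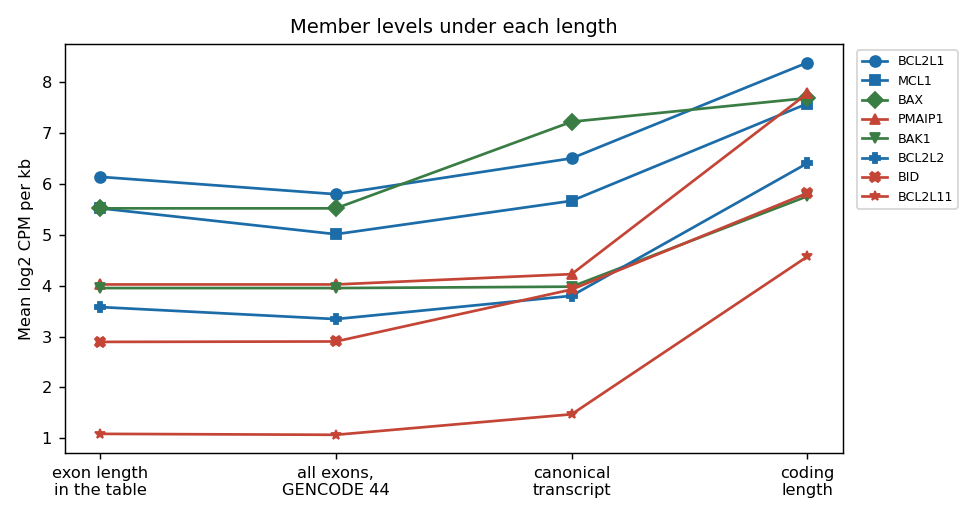
Mean log2 CPM per kb of the 8 genes under 4 definitions of gene length, from left to right the exon length in the table, all exons in GENCODE release 44, the canonical transcript and its coding part. Lines join the values of 1 gene and are coloured by class; BAX rises to 7.22 with the canonical transcript, and BCL2L11 is the lowest gene throughout.

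Some of these genes share exon sequence with neighbours, so part of their reads could have been assigned elsewhere or left out. Percentages of shared bases are of the joined exons in GENCODE release 44, which have 4840 bases for BCL2L2 and 4197 for BCL2L1. BCL2L2 (chr14:23298790-23311751) shares 815 bases (16.8%) with the readthrough gene BCL2L2-PABPN1 on the same strand, which was in the table at 0.99 log2 CPM. Another 386 of its bases (7.98%) overlap exons on the opposite strand. These belong to PPP1R3E (315 bases), which had 4.01 log2 CPM, and HOMEZ (149 bases), which had no row. On the opposite strand, 1735 bases of BCL2L1 (41.3%) overlap exons of the long noncoding RNA ABALON, which had 2.02 log2 CPM. BCL2L11 (chr2:111119378-111168445) shares 727 bases (10.8%) with exons of MIR4435-2HG on the opposite strand. This noncoding RNA had 6.23 log2 CPM and BCL2L11 had 3.82, both as reads not scaled by length. The libraries were stranded, but whether the counting used strand is not given in the sources used here, and without strand the reads of such pairs cannot be told apart. The effect of these overlaps on the levels was not tested.

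The other genes lie at chr1:150574551-150579738 (MCL1), chr20:31664452-31723989 (BCL2L1), chr18:59899996-59904305 (PMAIP1), chr22:17734138-17774770 (BID), chr19:48954815-48961798 (BAX) and chr6:33572547-33580293 (BAK1), as the table gives them. PMAIP1, BID and BAX shared no exon base with another annotated gene, and BAK1 shared 91 bases (4.11%) with the pseudogene GGNBP1 on the opposite strand. MCL1 shared 328 bases on its own strand with ADAMTSL4-AS1, which had no row, and 43 on the other strand with ADAMTSL4. Its exons join to 6222 bases in GENCODE release 44 but to 4371 in the table, as the newer gene model reaches further.

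Of 11 other genes of the BCL2 family, 5 were in the table. BCL2 itself, the founding anti-apoptotic gene, had -0.02 log2 CPM per kb, below BCL2L11. The BH3-only gene BAD had 4.92 log2 CPM per kb, above each of the 3 BH3-only genes described here, and the effector relative BOK had 4.77. This place depends on the length used. With the coding length, 504 bases for BAD and 162 for PMAIP1, BAD is below PMAIP1. Whether BAD keeps its place under the remaining lengths was not tested. The more distant BCL2L12 and BCL2L13 had 5.02 and 1.63. BCL2A1, BCL2L10, BMF, HRK, BCL2L14 and BCL2L15 had no row. Of the 21 genes of both sets, 13 were thus in the table, and BCL2L1 was the highest and BCL2 the lowest of them per kb.

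Genes that act around the family were set beside it, from lists chosen by function. The median of the 8 genes was 3.99 log2 CPM per kb, above 76.5% of genes in the table, and 7 of the 8 were above the median of all genes. The 7 outer membrane partners had a higher median of 4.91, led by the channel VDAC1 at 6.84, and MFN1 was their lowest at 3.21. MTCH2, the receptor of BID on mitochondria, had 5.74 log2 CPM per kb. All 9 apoptosome and caspase genes were in the table, with a median of 2.00. CYCS, which encodes the cytochrome c that BAX and BAK1 release, had 5.83 and CASP10 had -0.69, the ends of that list.

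APAF1, the scaffold that cytochrome c activates, had 2.00 log2 CPM per kb, and CASP9, which it recruits, had 0.39. APAF1 was below 7 of the 8 BCL2 family genes described here, and CASP9 was below all 8. CASP8, which cleaves BID, had 1.43. The 7 inhibitors of apoptosis and their antagonists had a median of 2.74, from -0.69 for DIABLO to 5.90 for BIRC5 (survivin). Of 5 genes listed for the turnover of MCL1 protein, the ubiquitin ligase HUWE1 had the highest level, at 4.97, and the deubiquitinase USP9X had 4.66. TRIB1 was the lowest of them, at -0.08. Levels of all these neighbouring genes use the listed exon length alone. That length can differ widely from the canonical transcript, with 6955 against 1471 bases for DIABLO and 7243 against 2659 for CASP8. Whether the medians and ends of these lists hold under other lengths was not tested.

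**Figure D4:**
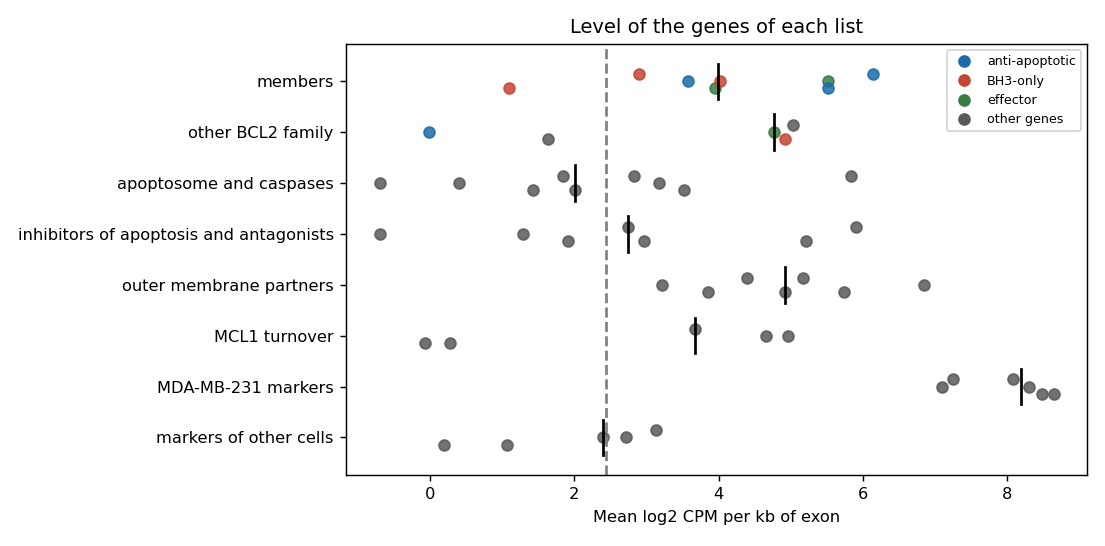
Mean log2 CPM per kb of exon of each gene in the table, 1 point per gene, by list; points are offset vertically for legibility, vertical bars are list medians and the dashed line is the median of all genes (2.43). The top line holds the 8 genes described here, of which 7 lie to the right of the dashed line, and genes of the BCL2 family are coloured by class, with distant relatives in grey.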

How the data were processed

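RNA from 2 cordycepin-treated and 2 vehicle-treated samples was sequenced by the authors as 75 bp paired-end reads, mapped to GRCh38.p13 and counted with rsubread. The submitters' processing notes name hg38, TopHat, HTSeq, DESeq and Cufflinks. The authors' deposited table holds, for each gene, a mean level as log2 CPM over all libraries, an exon length, and columns of the authors' own comparison of cordycepin with DMSO (log2 fold change, F statistic, p-value and adjusted p-value). The latter were not used, and their values are not given. Columns named for a single sample number 0. The filter on low counts, the normalization and the depth of the libraries are not given in the sources used here.

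Level per kb is log2 CPM less the log2 of the listed length in kb. That length equalled the joined exons in GENCODE release 44 for 10259 of the 13922 genes (73.7%) found there by gene ID. Percentages of genes below a value count all 13957 genes. Coding length was to be the main length, and was made an alternative when the table was seen to hold exon lengths. Proteins were translated from canonical GENCODE transcripts and aligned globally, with free end gaps (BLOSUM62, gap scores -10 and -0.5), and identity was taken over positions without gaps. The functions were tested on simulated data. The genes and lists were chosen with earlier results of these data known. All listed genes in the table were used, and from lists of other genes the highest and lowest were named. MTCH2, APAF1, CASP9, CASP8 and USP9X were named for their roles, and overlapping genes for their position, after their values were seen. No test between groups was made, as no value per library was given. Python 3.11.15, numpy 2.4.6, pandas 2.3.3, Biopython 1.88 and matplotlib 3.10.9 were used.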

Additional observations from a re-analysis of the deposited data

How the results depend on the processing

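A value was taken as changed when it moved by more than 1.5 times, or, for a difference of log2 levels, by more than the log2 of 1.5. Among protein-coding genes only, the median percentile of the 8 genes was 58.3, and among genes above the lowest 25% of mean level it was 51.4, against 63.6 over all genes, all by unscaled log2 CPM. Of the 8 genes, BCL2L11 changed, from 37.7 to 16.9 among genes above the lowest 25%. The anti-apoptotic median less the BH3-only median (2.63 on the log2 scale) fell to 1.74 with the canonical transcript, to 1.76 with the coding length (chosen beforehand, and made an alternative after seeing the data) and to 1.09 with all listed genes of the family. The anti-apoptotic less the effector median (0.78) was 0.066 with the canonical transcript, 0.28 with all exons in GENCODE release 44, 0.34 with the mean of the log2 levels and 1.65 without scaling by length, and reversed to -0.22 with all listed genes of the family. The BH3-only less the effector median (-1.84) was -0.95 without scaling and -0.90 with the coding length. The anti-apoptotic and effector medians were above the BH3-only median under all 6 alternatives. The other alternatives moved these differences by less than the log2 of 1.5. The core pattern was found in 8 proteins with the wider first residue and in 7 with glycine only, and median identity was 25.3% over the shorter protein and 33.3% by local alignment. No paired analysis was possible because the table holds no value per library. For the same reason no library could be left out, and no other pseudocount, filter on counts or normalization could be tried. Low genes such as BCL2L11 are the least precise at any depth, but the depth here is unknown.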
